A study of Mus musculus with 96 samples.

Results

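The receptors for glutamate and for γ-aminobutyric acid (GABA) are encoded in the mouse by a family of genes that were chosen here by symbol: protein-coding genes named Gria, Grik, Grin, Grid, Grm, Gabr or Gabbr with a member number or letter. They came to 47 of the 56748 genes in the count table, of which 21970 are protein-coding. By role there were 4 AMPA, 5 kainate, 7 NMDA and 2 delta receptor genes, 8 metabotropic glutamate (mGlu) receptor genes, 6 α, 3 β, 3 γ and 7 other subunits of the GABA-A receptor, and 2 subunits of the GABA-B receptor. Some members enter the counts and are not described by name. AMPA, kainate and NMDA receptors are cation channels opened by glutamate, the main excitatory transmitter of the cerebral cortex, and mGlu receptors act through G proteins. GABA-A receptors are chloride channels built from subunits around a shared pore, GABA-B receptors act through G proteins as a pair of unlike subunits, and both carry inhibition.

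Polyadenylated RNA was measured in cortex, liver and skeletal muscle of mice that ate freely (ad libitum, AL) or fasted intermittently (IF), with 8 labelled mice for each sex and diet and 96 libraries in all. Males were C57BL/6 mice without a named allele that began at 6 weeks of age and ate normal chow for 4 months, either at all hours or with 16 h of fasting each day. For females the labels give tissue, sex and diet, and neither strain, age, hours of fasting nor length of diet is stated. Each library is from a single mouse, and a mouse number recurs in the 3 tissues.

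Library totals ran from 26097314 to 49838004 counts, so a single count was worth between 0.0201 and 0.0383 counts per 1000000 counts of the library (CPM). Tissue labels were checked with a defining gene each. Slc17a7, the vesicular glutamate transporter of cortical excitatory neurons, lay between 1458 and 2337 CPM in cortex and at most at 0.635 CPM elsewhere. Alb, the liver's plasma albumin, lay between 23146 and 69838 CPM in liver and at most at 3.31 CPM elsewhere. Acta1, skeletal muscle actin, lay between 37929 and 54309 CPM in muscle and at most at 28.2 CPM elsewhere.

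A library of cortex went against its label of sex. In cortex of male AL replicate 1, Xist, expressed from the inactive X chromosome, had 213 CPM, against 0 to 0.612 CPM in the other 47 male libraries and 36.8 to 1627 CPM in 48 female libraries. Ddx3y, a gene of the Y chromosome, had 0 CPM in it, against 25.1 to 70.8 CPM in the other male libraries. That library was left out of each value below unless it is named, which leaves 7 male AL cortex libraries, and for called receptor genes the cortex tests of diet, interaction and sex are given with it as well. Levels per kilobase, marker changes, values of single pathway genes and the comparison of tissues are given without it. It lay below all 7 others for 14 of the 47 receptor genes, among them Gabra2 at 28.7 CPM, and above all of them for 4, Grik4, Grm6, Gabrr2 and Gabbr1. Some other cortex libraries also stood apart, by RNA of the choroid plexus: its 4 markers summed to 574.4 and 3143 CPM in male AL replicates 2 and 4, to 3434 and 1579 CPM in male IF replicates 3 and 6, and to 1577 and 4346 CPM in female IF replicates 2 and 4. No other cortex library passed 123.6 CPM.

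The receptor genes were mostly genes of cortex. In male AL cortex, 38 of 47 had a mean of at least 1 CPM, 35 of at least 10 CPM and 14 of at least 100 CPM, and Gabrp, the π subunit, had no count in any of the cortex libraries used. In male AL liver 7 of 47 reached a mean of 1 CPM and 14 had no count in any library. In male AL muscle 3 of 47 reached 1 CPM and 6 had no count in any library. Female AL mice had 39, 7 and 3 members at 1 CPM or more in cortex, liver and muscle.

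Levels of different genes are compared per kilobase (kb) of the table's gene length, as a mean ± SD over the 7 male AL cortex libraries. Among AMPA subunits, Gria1 was highest at 43.7 ± 5.04 CPM per kb and Gria4 lowest at 11.2 ± 0.966 CPM per kb. Gria2 at 18.5 ± 1.06 and Gria3 at 17.3 ± 0.686 CPM per kb lay between them and did not differ beyond their spread. Grik5, a kainate subunit that needs a partner subunit to form channels, stood at 80.1 ± 8.95 CPM per kb, or 82.6% of the summed CPM per kb of its subfamily. Grik1, which forms channels by itself, was the lowest kainate subunit at 1.76 ± 0.326 CPM per kb. Grin1, the obligatory NMDA subunit, made up 60.8% of its subfamily at 56.0 ± 4.67 CPM per kb. Grin3b, a glycine-binding NMDA subunit best known from motor neurons, was lowest at 0.094 ± 0.0337 CPM per kb. Grid1, a delta receptor, had 8.15 ± 1.09 CPM per kb. Among mGlu receptors the presynaptic Grm2 was highest at 15.1 ± 4.14 CPM per kb, and its libraries, at 9.18 to 20.6 CPM per kb, overlapped the range of Grm3, at 8.43 to 10.8 CPM per kb. Grm6, the receptor of retinal ON bipolar cells, was lowest at 0.0021 ± 0.00389 CPM per kb. So a single gene dominated the kainate and NMDA groups.

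The GABA receptors were as uneven. Among α subunits Gabra3 had 25.7 ± 2.29 CPM per kb, and Gabra6, a subunit of cerebellar granule cells, was lowest at 0.006 ± 0.0103 CPM per kb. The lowest β subunit in the table was Gabrb2 with 0.483 ± 0.177 CPM per kb, a low value for this subunit in cortex, and how the counting treated its transcripts is not known. Of the γ subunits the lowest was Gabrg3 with 1.71 ± 0.203 CPM per kb. Of the other subunits, Gabrd, part of receptors outside the synapse, had 40.4 ± 9.0 CPM per kb, and Gabrp had 0. Gabbr1, the GABA-B subunit that binds the transmitter, stood at 83.05 ± 3.44 CPM per kb and Gabbr2, the subunit that couples to G proteins, at 30.7 ± 4.29 CPM per kb. The table's gene length was between 0.33 and 1 times the exon length in a present annotation of the same build, with a median of 0.843, and values per kb carry that uncertainty.

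**Figure D1:**
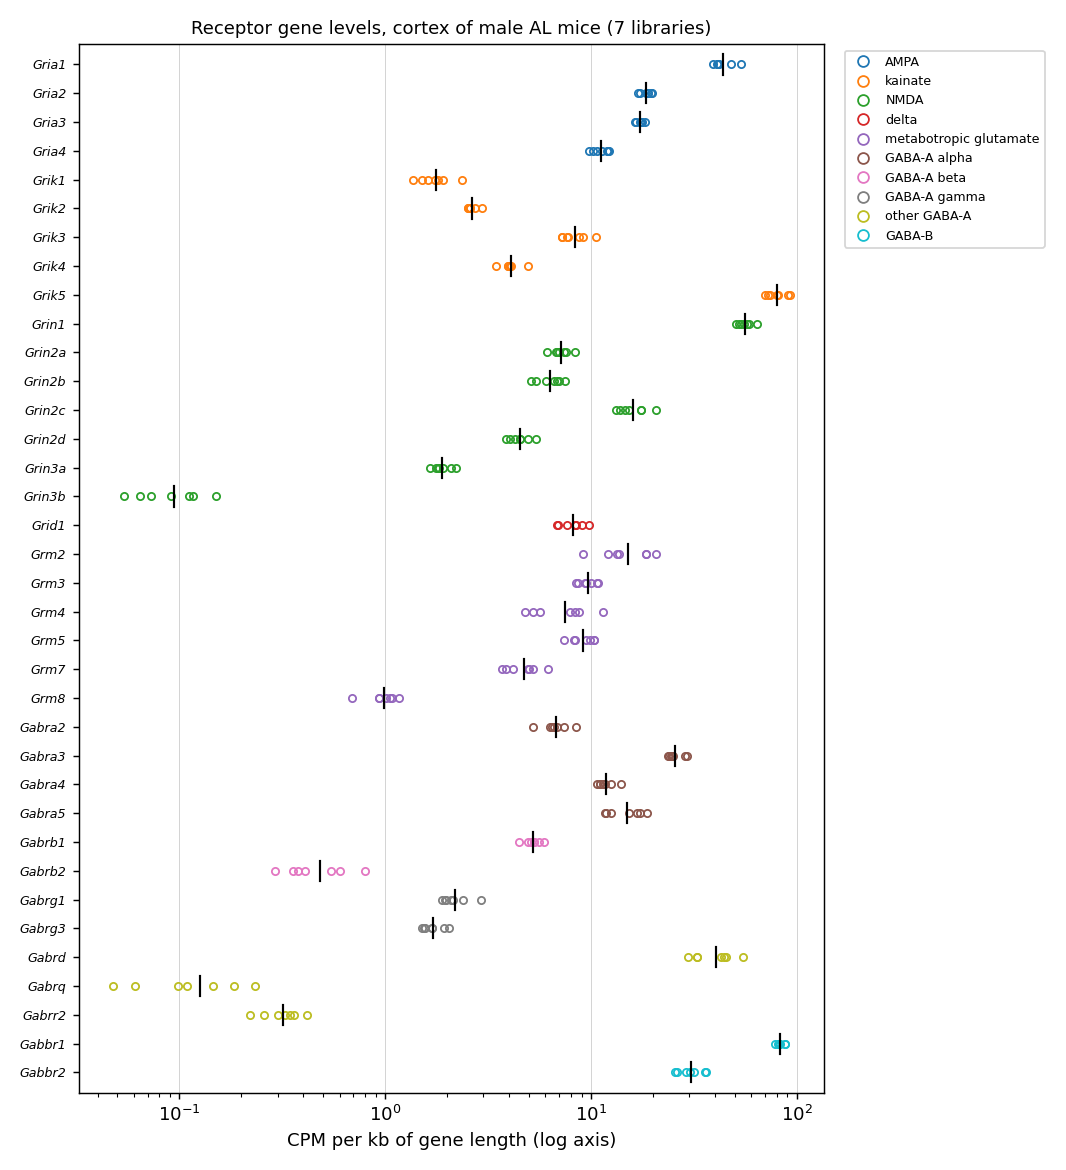
Levels of receptor genes tested in cortex and described by name, in CPM per kb of gene length on a log axis, in 7 male AL libraries. Circles are libraries, colours are subfamilies and black ticks are means; Gabbr1 and Grik5 lie farthest right and Grin3b farthest left.

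The first comparison asks what daily fasting changed in male cortex. In IF mice 11 of the receptor genes were lower, and Grin3b and Gabrr2 were higher. Those that fell came from 7 of the 10 subfamilies, and the largest falls were in Gabra2, Grin3a, Grik1 and Gabrg1. No member of the delta or GABA-B group passed the test. Of 5 oligodendrocyte markers 4 were called higher in the same libraries. With their sum as a covariate, added after seeing the data, 0 members and 0.00542% of all genes were called. That sum went with diet, at medians of 5215 CPM in male AL and 7870 CPM in male IF, so the fit cannot fully separate it from diet.

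Of 41 members with enough counts to test, 13 were called, that is, had an adjusted p under 0.05 in edgeR's quasi-likelihood test over all genes, where 7.21% of 18462 genes were called. By direction, 11 of 41 were lower, against 3.43% of all genes, and 2 of 41 were higher, against 3.79%. The median log2 change was −0.17 over members and −0.0049 over all genes, and 28 of 41 members had a negative change. For none of the 41 did AL and IF values lie fully apart, which 1.01% of all genes did. Receptor genes are long, and long genes were called lower more often: 1.53% of genes up to 2 kb and 7.64% of genes over 10 kb. The share called lower or higher rose with length as well, from 3.06% of genes up to 2 kb to 12.4% of genes over 10 kb. Genes over 10 kb were thus also called higher more often than genes up to 2 kb. Over 10 kb 4 of 9 members were called lower, and from 6 to 10 kb 6 of 17, against 5.27% of genes. From 4 to 6 kb it was 0 of 9, against 3.4%, and from 2 to 4 kb 1 of 6, against 2.58%. The part of gene length in the members' changes was not tested. Of the 6 members not tested, Gabrp had no count, and Grm6, Gabra6, Gabre, Gabrr1 and Gabrr3 had at most 0.0535, 0.0543, 0.669, 0.107 and 0.186 CPM in male AL cortex. With male AL replicate 1 included 1 member was called, Grin2d, where 1.6% of all genes were called, and 22 had an unadjusted p under 0.05, against 19.5% of all genes. Without the 4 male libraries with choroid plexus RNA, a comparison chosen after seeing the data, edgeR called 0 members and 0.411% of all genes, 19 members had an unadjusted p under 0.05, against 13.9% of all genes, and the median change of members was −0.17; DESeq2 was not run on that subset. The count was 4 without AL replicate 2 or 3 (3.43% and 4.12% of all genes), 6 without AL replicate 5 or without IF replicate 2, 5 or 6 (4.15% to 5.68%), and 7 without IF replicate 1, 3 or 7 (4.79% to 5.78%).

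**Figure D2:**
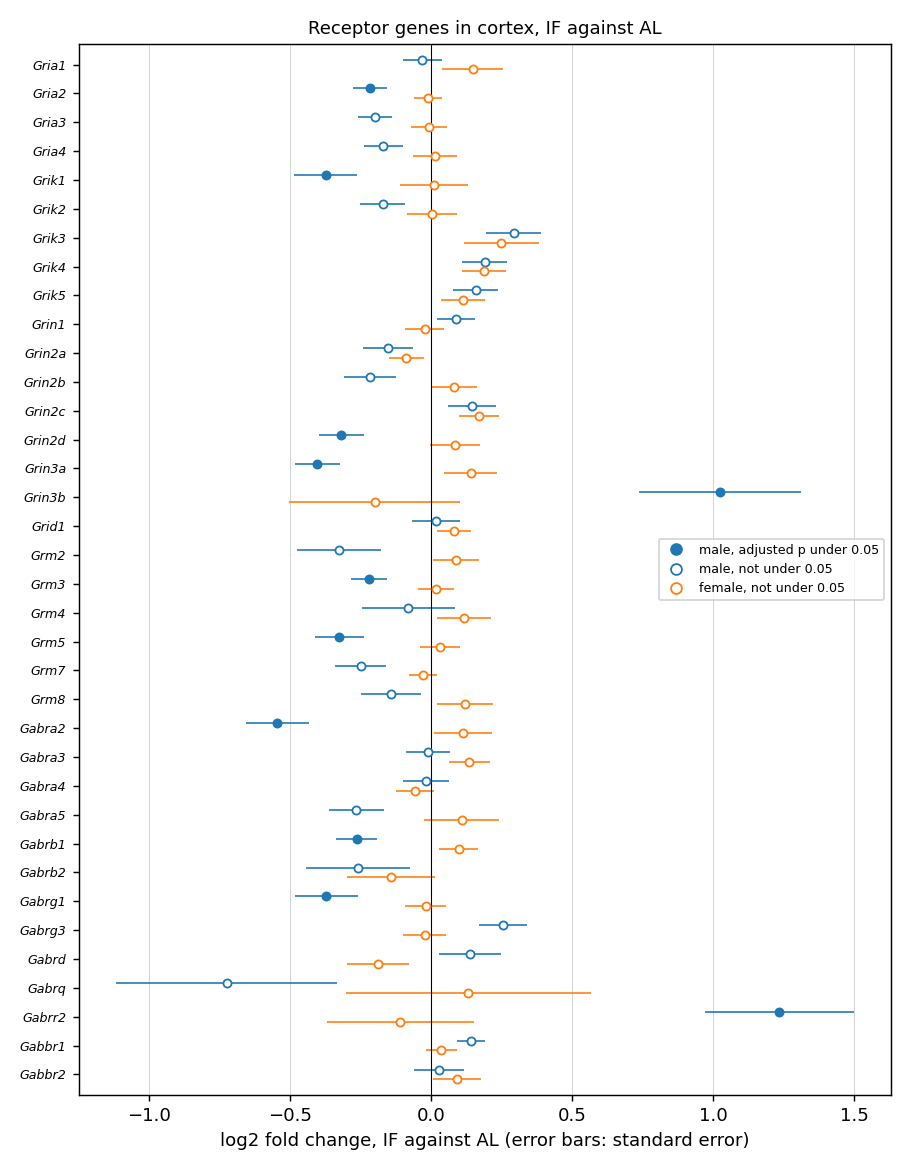
Log2 fold change in cortex, IF against AL, of receptor genes tested and described by name, in male (7 AL and 8 IF libraries) and female mice (8 and 8), with bars of 1 standard error. Filled points have an adjusted p under 0.05 in edgeR, and they are 11 male and 0 female points.

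Among AMPA receptors Gria2, the subunit that makes the channel impermeable to calcium, was lower in IF. It ranged from 263.5 to 306.7 CPM with a median of 293 in male AL and from 213 to 285 CPM with a median of 248 in male IF. All 8 IF libraries lay below the AL median and 6 lay below the lowest AL library, so the groups overlapped in 2. The log2 change was −0.22 (SE 0.0606, adjusted p = 0.0373), and −0.19 with AL replicate 1 included (adjusted p = 0.104; 0.00202 to 0.741 over 27 alternatives, the unadjusted p among them). Each range over 27 alternatives, here and below, holds an unadjusted p, which is never above the adjusted p of the same fit. The call was lost without AL replicate 2, 3, 5 or 8 and without IF replicate 1, 3, 5, 6 or 7, at adjusted p from 0.0544 to 0.0845. In female cortex Gria2 had medians of 246.8 CPM in AL and 247.6 CPM in IF and a change of −0.01 (adjusted p = 0.949). The female change minus the male change was 0.21 (adjusted p = 0.147). Gria1, Gria3 and Gria4 had male changes between −0.20 and −0.03, and Gria3 missed the threshold at an adjusted p of 0.0502.

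Of the kainate receptors Grik1 was called, and lower in IF. It ranged from 9.17 to 15.9 CPM with a median of 11.7 in male AL and from 7.64 to 11.1 CPM with a median of 8.84 in male IF. Of its IF libraries 5 were below the AL minimum, and 4 of 7 AL libraries were above the IF maximum. Its log2 change was −0.37 (SE 0.111, adjusted p = 0.0457), and −0.33 with AL replicate 1 (adjusted p = 0.113; 0.00306 to 0.741 over 27 alternatives). Leaving out AL replicate 2, 3, 5, 6 or 8, or IF replicate 1, 2, 3, 6, 7 or 8, ended the call, at adjusted p from 0.0579 to 0.105. Female Grik1 had medians of 11.98 CPM in AL and 11 CPM in IF, a change of 0.01 (adjusted p = 0.981) and a difference from the male change of 0.39 (adjusted p = 0.249). Grik3, Grik4 and Grik5 had positive changes that did not pass the test in either sex. Grik3, whose male change was 0.29 (adjusted p = 0.0732), lay at 50.04 to 105.9 CPM with a median of 56.8 in female AL and at 55.03 to 92.01 CPM with a median of 77.1 in female IF. In 7 of 8 female IF libraries it lay above the female AL median, inside the AL range, and the female change of 0.25 (SE 0.133, adjusted p = 0.481) was the largest there. Grik4 in females lay at 21.8 to 30.2 CPM with a median of 24.5 in AL and at 24.1 to 32.04 CPM with a median of 28.98 in IF. It passed the AL maximum in 4 female IF libraries, for a change of 0.19 (SE 0.0782, adjusted p = 0.406).

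In the NMDA group Grin3a and Grin2d fell and Grin3b rose, while Grin1 at a male change of 0.09 (adjusted p = 0.445), Grin2a, Grin2b and Grin2c did not pass the test. Grin3a, which lowers calcium entry through NMDA receptors, ranged from 20.3 to 27.1 CPM with a median of 22.4 in male AL and from 15.5 to 21.4 CPM with a median of 16.9 in male IF. Only IF replicate 4 reached into the AL range, and the other 7 IF libraries were below it. The log2 change was −0.40 (SE 0.0798, adjusted p = 0.00724). Each fit without a single library kept the call, with changes from −0.45 to −0.37; with AL replicate 1 the change was −0.35 (adjusted p = 0.0523; 6.1e-05 to 0.631 over 27 alternatives). Grin2d, a subunit of slow NMDA receptors found in interneurons, ranged from 25.7 to 35.98 CPM with a median of 30.01 in male AL and from 20.5 to 27.1 CPM with a median of 22.7 in male IF. In IF 5 libraries were lower than any AL library, and 5 of 7 AL libraries were higher than any IF library. The change was −0.32 (SE 0.0805, adjusted p = 0.023), was −0.32 with AL replicate 1 too (adjusted p = 0.0407; 0.000795 to 0.742 over 27 alternatives), and missed the threshold without AL replicate 2 or 3 (adjusted p 0.0552 to 0.0591). In female cortex Grin2d had medians of 27.7 CPM in AL and 28.4 CPM in IF, a change of 0.08 (adjusted p = 0.71), and 0.41 for the difference of changes (adjusted p = 0.0746).

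Grin3b was the member of this group that rose, from a low level. Male AL libraries held 0.178 to 0.494 CPM with a median of 0.299, or 7 to 16 counts, and male IF libraries 0.347 to 0.913 CPM with a median of 0.580, or 12 to 33 counts. In IF 6 of 8 libraries were above the AL maximum and all 8 above the AL median. The change was 1.03 (SE 0.287, adjusted p = 0.0364), and 0.95 with AL replicate 1 (adjusted p = 0.067; 0.00192 to 0.764 over 27 alternatives). Without AL replicate 2, 3, 5 or 8, or IF replicate 2, 3, 5, 7 or 8, its adjusted p lay between 0.0507 and 0.0827. Female Grin3b had medians of 0.518 CPM in AL and 0.397 CPM in IF with a change of −0.20 (SE 0.302, adjusted p = 0.813), and the difference of changes was −1.22 (adjusted p = 0.122). Of its exon bases 32.4% are shared with genes on the opposite strand, Tmem259 among them, and the strand setting used in counting is not stated, so reads of the neighbours cannot be told apart. Grid1 had a change of 0.02 in males and was not called.

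Among the mGlu receptors that fell in male IF cortex were Grm5, which raises calcium in the postsynaptic cell, and Grm3, which lowers cyclic AMP in neurons and astrocytes. Grm5 ranged from 76.2 to 106.1 CPM with a median of 97 in male AL and from 61.5 to 85.4 CPM with a median of 74.6 in male IF. Its IF values were below the AL minimum in 5 libraries, and below the AL median in all 8. The change of −0.33 (SE 0.0874, adjusted p = 0.0298) became −0.27 with AL replicate 1 (adjusted p = 0.162; 0.00134 to 0.631 over 27 alternatives). It lost its call without AL replicate 2, 3 or 5 and without IF replicate 2, 5 or 6, at adjusted p from 0.0555 to 0.0758. Grm3 ranged from 25.7 to 32.9 CPM with a median of 28.9 in male AL and from 23.2 to 27.4 CPM with a median of 25.2 in male IF. Here 5 IF libraries lay under the AL range and 3 within it. The change of −0.22 (SE 0.0647, adjusted p = 0.0438) was −0.20 with AL replicate 1 (adjusted p = 0.106; 0.0028 to 0.608 over 27 alternatives). It kept its call in 3 of 15 fits, and without AL replicate 3, 4, 5, 7 or 8 or IF replicate 1, 2, 3, 5, 6, 7 or 8 its adjusted p was 0.0514 to 0.0882. In female cortex the changes were 0.03 for Grm5 and 0.02 for Grm3, and the differences of changes were 0.36 and 0.24 with adjusted p of 0.103 and 0.163. Grm2, Grm4, Grm7 and Grm8 had male changes between −0.33 and −0.08 and were not called.

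Of the GABA-A α subunits, Gabra2, found at synapses onto the cell body and axon of principal neurons, was the member that changed. Male AL libraries ranged from 40.05 to 64.9 CPM with a median of 50.5, and male IF libraries from 27.1 to 43.9 CPM with a median of 35.4. All AL libraries but replicate 7 lay above the whole IF group, and 6 of 8 IF libraries lay below the whole AL group. The log2 change was −0.55 (SE 0.111, adjusted p = 0.00913) and ran from −0.61 to −0.48 in the 15 fits without a single library, each of which kept the call. It was −0.47 with AL replicate 1 (adjusted p = 0.0849) and −0.48 without the choroid plexus libraries (adjusted p = 0.137; 0.000105 to 0.608 over 27 alternatives). Gabra3, Gabra4 and Gabra5 had male changes between −0.27 and −0.01 that did not pass.

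Gabrb1, a β subunit, ranged from 61.7 to 82.1 CPM with a median of 72.7 in male AL and from 51.4 to 72.7 CPM with a median of 58.3 in male IF. Under the AL range were 5 of its 8 IF libraries. The change was −0.26 (SE 0.0723, adjusted p = 0.0329), and −0.23 with AL replicate 1 (adjusted p = 0.105; 0.00161 to 0.734 over 27 alternatives). It was no longer called without AL replicate 2, 3, 4 or 5 or IF replicate 1, 2, 5, 6 or 7, at adjusted p from 0.0532 to 0.0826. Gabrb2 had a change of −0.26 (adjusted p = 0.418).

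Gabrg1, a γ subunit of low level in cortex, ranged from 14.8 to 22.9 CPM with a median of 16.5 in male AL and from 10.9 to 16.6 CPM with a median of 12.5 in male IF. Below the AL range were 6 IF libraries, and 2 were inside it. The change was −0.37 (SE 0.112, adjusted p = 0.0479), and −0.34 with AL replicate 1 (adjusted p = 0.101; 0.00333 to 0.692 over 27 alternatives). Its call was kept in 4 of 15 fits and lost without AL replicate 2, 3, 4, 5 or 6 or IF replicate 1, 2, 3, 5, 6 or 8, at adjusted p from 0.0546 to 0.111. Its female change was −0.02 (adjusted p = 0.935), with a difference of changes of 0.36 (adjusted p = 0.18). Gabrg3 had a male change of 0.25 (adjusted p = 0.0709).

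Gabrr2, a ρ subunit best known from the retina, rose from a low level. It ranged from 0.463 to 0.881 CPM with a median of 0.687 in male AL, or 15 to 30 counts, and from 0.547 to 2.68 CPM with a median of 1.54 in male IF, or 18 to 88 counts. Its IF values were above the AL maximum in 7 of 8 libraries, and IF replicate 4 lay inside the AL range. The change was 1.24 (SE 0.264, adjusted p = 0.0107), kept its call in each of the 15 fits without a single library, and was 0.94 with AL replicate 1 (adjusted p = 0.0894; 0.000149 to 0.683 over 27 alternatives). Female medians were 1.33 CPM in AL and 1.26 CPM in IF, with a change of −0.11 (adjusted p = 0.889), and the difference of changes was −1.34 (SE 0.376, adjusted p = 0.0524). Gabrq, the θ subunit, had the largest change in males after Gabrr2 and Grin3b, and was not called. It ranged from 0.254 to 1.25 CPM with a median of 0.585 in AL. In IF it ranged from 0.0872 to 0.773 CPM with a median of 0.361. Its IF level was below the AL median in 6 libraries, for a change of −0.73 (SE 0.393, adjusted p = 0.273). Gabrd changed by 0.14 (adjusted p = 0.478), and of the GABA-B subunits Gabbr1 had a change of 0.14 (adjusted p = 0.0922) and Gabbr2 of 0.03 (adjusted p = 0.884).

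**Figure D3:**
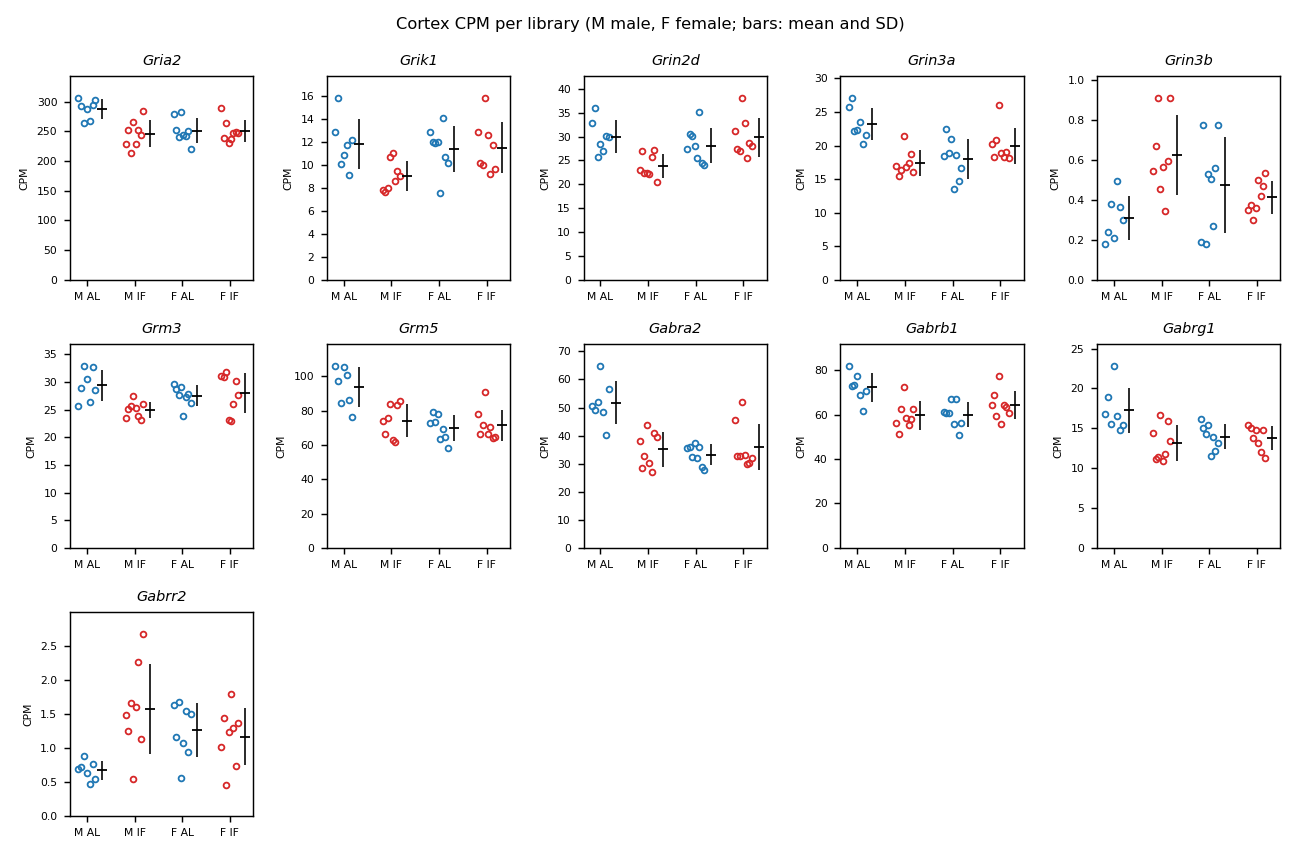
Cortex CPM per library of 11 of the 13 receptor genes called in males, in male (M) and female (F) AL and IF mice; circles are libraries (7, 8, 8 and 8), bars the mean and SD. For Gabra2 and Grin3a the male AL median is the highest of the 4 groups, and for Gabrr2 the lowest.

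In female cortex the same comparison gave few changes among any genes. With 0.0109% of 18403 genes called, edgeR called 0 of 41 members, 2 had an unadjusted p under 0.05 (Grik4 and Grin2c), against 11.2% of all genes, and DESeq2 called 0. Without female AL replicate 2 edgeR called 254 genes (1.37%) and 0 members, with 7 members and 20.7% of all genes at an unadjusted p under 0.05. The median log2 change of members was 0.02, against 0.0032 over all genes, and 25 of 41 were positive.

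Whether the sexes differed in their response was tested as an interaction, the female change minus the male change. Sex goes with mouse number, and age, hours of fasting and length of diet are not stated for females, so these cannot be told apart from sex. The subunits that passed were Gabra2, Gabrb1 and Grin3a, each with a fall in males and a positive change in females that did not pass the test. They were 3 of 41 members, against 2.03% of 19547 genes, all in the positive direction, against 1.06%. Gabra2 lay at 27.6 to 37.5 CPM with a median of 33.96 in female AL and at 30.1 to 52.0 CPM with a median of 32.7 in female IF. Of 8 female IF libraries 6 were below the AL median and 2 were above the AL maximum. Its female change was 0.11 (SE 0.104) and its interaction 0.66 (SE 0.162, adjusted p = 0.0263). Gabrb1 lay at 50.7 to 67.2 CPM with a median of 60.9 in female AL and at 56.1 to 77.3 CPM with a median of 64.0 in female IF. The female groups overlapped in all but 2 IF libraries, for a change of 0.10 (SE 0.0676) and an interaction of 0.37 (SE 0.101, adjusted p = 0.0488). Grin3a lay at 13.6 to 22.5 CPM with a median of 18.5 in female AL and at 18.1 to 25.97 CPM with a median of 18.9 in female IF. Here IF replicate 4 alone passed the AL maximum, for a change of 0.14 (SE 0.0937) and an interaction of 0.55 (SE 0.127, adjusted p = 0.0182). That library was the highest of female IF for each of the 3 genes, at 52.03 CPM of Gabra2, 77.26 CPM of Gabrb1 and 25.97 CPM of Grin3a. It is also the library with 4346 CPM of choroid plexus markers, and it had 47.5 CPM of hippocampal granule cell markers, against at most 17.2 CPM in the others of its group. Without the choroid plexus libraries of both sexes edgeR called 0 members and 0.0761% of all genes, with 15 members and 11.6% of all genes at an unadjusted p under 0.05; the interactions of Gabra2, Gabrb1 and Grin3a were then 0.50, 0.24 and 0.45 with adjusted p of 0.168, 0.35 and 0.153. The interaction was not tested without that library alone. At an unadjusted p under 0.05 there were 19 members, against 15.4% of all genes, and 30 of 41 had a positive interaction. With male AL replicate 1 included edgeR called 0 members and 0.417% of all genes, with 17 members and 12.6% of all genes at an unadjusted p under 0.05, and the interactions of Gabra2, Gabrb1 and Grin3a were 0.58, 0.33 and 0.50 with adjusted p of 0.136, 0.132 and 0.0734. Over 9 alternatives the adjusted p ran from 0.00632 to 0.926 for Gabra2, from 0.0301 to 0.952 for Gabrb1 and from 0.00475 to 0.819 for Grin3a.

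Male AL mice are the controls of the diet comparison in males and enter the interaction and the comparison of the sexes within AL, so these results share samples and are given side by side. In AL cortex females had less RNA than males of 10 receptor genes and more of Gabrr2. The 11 of 41 members compare with 12.6% of 19547 genes called, and the 10 lower in females with 7.11%. Of 6 striatal neuron markers 5 were called lower in females, and of 5 oligodendrocyte markers 3 were called higher. With the summed striatal markers as a covariate, added after seeing the data, 8 members and 10.1% of all genes were called. With both marker sums as covariates 0 members and 1.67% of all genes were called. Gabra2 and Grik2 were among the clearest of the called members. Gabra2 had a log2 difference, female minus male, of −0.63 (SE 0.116, adjusted p = 0.000528). Grik2, a kainate subunit that forms channels by itself, lay at 33.3 to 38.9 CPM with a median of 34.2 in male AL and at 20.1 to 33.1 CPM with a median of 24.4 in female AL. Its difference was −0.44 (SE 0.0881, adjusted p = 0.00113), while its male diet change was −0.17 (adjusted p = 0.195). Grm5 was below the male minimum in 6 of 8 female libraries, with a difference of −0.42 (SE 0.0841, adjusted p = 0.00117). Grin3a, Gabrb1, Gria2, Gria3 and Gabrg1 were lower in females by less, with differences from −0.36 to −0.19. Gabrr2, higher in females, was above the male maximum in 7 of 8 libraries, with a difference of 0.91 (SE 0.277, adjusted p = 0.0259). With male AL replicate 1 included 7 members and 6.83% of all genes were called, and Gabra2, Grik2, Grm5, Grin3a and Gabrb1 had adjusted p of 0.00917, 0.0259, 0.0162, 0.0416 and 0.0482. Calls were lost for Gria2 at 0.0613, Gria3 at 0.0977, Gabrg1 at 0.0804 and Gabrr2 at 0.188. Over 9 alternatives the highest adjusted p were 0.123 for Gabra2, 0.1 for Grik2, 0.267 for Grm5 and 0.593 for Gabrr2, and the lowest were 7.95e-06, 7.75e-05, 9.28e-05 and 0.0115. Males are mice 1 to 16 and females mice 25 to 40, so sex and any batch that goes with mouse number cannot be told apart.

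Markers of other cell types moved in the same libraries. In male cortex 4 of 5 oligodendrocyte markers were called higher in IF: Mbp by 0.59, Mog by 0.53, Mobp by 0.66 and Mag by 0.37 on the log2 scale. Their summed level was 4309 to 6706 CPM with a median of 5215 in male AL and 5847 to 9762 CPM with a median of 7870 in male IF; male AL replicate 1, left out, had 7753 CPM, above that AL range. Mbp, a protein of the myelin sheath, was the most abundant at means of 3275 and 4892 CPM, and no marker was at 0 throughout a group. The sum in females was 5560 to 9425 CPM with a median of 6889 in AL and 4911 to 7802 CPM with a median of 6372 in IF. Female diet changes were called for 0 of the 5, with 3 at an unadjusted p under 0.05; in the interaction 4 of 5 were negative and called, and 3 of 5 were higher in female than in male AL mice. With the oligodendrocyte sum as a covariate the interaction had 0 called members in edgeR. At an unadjusted p under 0.05 were 2 members and 5.39% of all genes. The interactions were 0.39 for Gabra2, 0.22 for Gabrb1 and 0.40 for Grin3a. In the same fit the sex difference in AL had 6 called members, against 5.89% of all genes. Of these Grm2 was not called without the covariate. With the summed oligodendrocyte markers as a covariate, added after seeing the data, edgeR called 0 of 41 members in male cortex, 7 had an unadjusted p under 0.05, against 7.49% of all genes, the median change was −0.08, and 1 of 18462 genes was called. In that fit the log2 changes were nearer 0 for Gabra2 (−0.52), Gabrg1 (−0.33), Grin3a (−0.31), Grik1 (−0.27), Gabrb1 (−0.18), Grin2d (−0.18), Gria2 (−0.14), Gabrr2 (0.76) and Grin3b (0.55), and farther from 0 for Grm5 (−0.34) and Grm3 (−0.27), with adjusted p from 0.608 to 0.764. In males the sum went with diet, so a fit that holds both cannot fully separate them. Fewer cells of a type and less RNA per cell cannot be told apart in tissue RNA.

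Markers of striatal neurons were uneven among male libraries. None of 6 was called for diet in males by edgeR or had an unadjusted p under 0.05; their summed level was 170.3 to 1895 CPM with a median of 764.9 in male AL and 561.5 to 1765 CPM with a median of 1268 in male IF, led by Ppp1r1b. In females it was 167.3 to 591.7 CPM in AL and 149.9 to 422.6 CPM in IF, and 5 of 6 were called lower in female than in male AL mice. No striatal marker was at 0 throughout a group. With this sum as a covariate, also added after seeing the data, edgeR called 6 members and 4.12% of all genes in male cortex. In the interaction edgeR called 0 members, with 13 members and 11.7% of all genes at an unadjusted p under 0.05. Of 5 astrocyte markers Aqp4 was called lower in male IF, at −0.51, while the sum, led by Aldoc, had medians of 1409 CPM in AL and 1440 CPM in IF. Of 4 endothelial markers Ly6c1 was called higher at 0.43 and Cldn5, the most abundant, lower at −0.43, with medians of the sum of 224.7 CPM in AL and 214.9 CPM in IF; no astrocyte or endothelial marker was at 0 throughout a group. The part of the astrocyte and endothelial markers in the receptor results was not tested.

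Excitatory neuron markers, led by Camk2a, had medians of the sum of 6658 CPM in male AL and 6557 CPM in male IF, and inhibitory neuron markers, led by Sst, medians of 1073 and 1017 CPM. Neither list of 6 had a called gene in males. No gene was called either in the lists for choroid plexus (4 tested), microglia (4), oligodendrocyte precursors (2), hippocampal granule cells (2), thalamic neurons (4), cerebellar granule cells (1), erythrocytes (5), hepatocytes (2), muscle fibres (3) and Schwann cells (2), and of adipocyte markers none had the counts to be tested. Together with the striatal and neuronal lists these held 47 tested genes, of which edgeR called 0 and 5 had an unadjusted p under 0.05. For female diet edgeR called 0 of 62 tested genes over all marker lists and 14 had an unadjusted p under 0.05, among them all 4 choroid plexus markers, with a median log2 change of 2.44; DESeq2 was not run on the lists. In the interaction Aqp4 was also called, at 0.55, and Pvalb, a marker of fast-spiking interneurons, at −0.90. Between the sexes in AL, genes were also called in the lists for astrocytes (1), endothelial cells (1), excitatory neurons (1), inhibitory neurons (2), muscle fibres (1) and thalamic neurons (1).

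Other genes of the same synapses were called at a share near that of all genes. Of 65 genes for receptor partners, scaffolds, transporters and enzymes, 6 were called in male cortex, against 7.21% of all genes, 4 lower and 2 higher, against the shares of 3.43% and 3.79% given above, with a median change of −0.04. Homer2, a scaffold that ties Grm5 to calcium stores, ranged from 26.04 to 40.4 CPM with a median of 37.3 in male AL and from 24.4 to 28.5 CPM with a median of 27.7 in male IF, a change of −0.38 (SE 0.0836, adjusted p = 0.0121). Grip1, which anchors AMPA receptors, had medians of 12.5 CPM in AL and 9.69 CPM in IF, a change of −0.30 (SE 0.0816, adjusted p = 0.03). Shisa6, an auxiliary subunit of AMPA receptors, had medians of 9.14 CPM in AL and 5.90 CPM in IF, a change of −0.61 (SE 0.162, adjusted p = 0.0297). Kctd12, an auxiliary subunit of GABA-B receptors, had medians of 43.8 CPM in AL and 34.1 CPM in IF, a change of −0.35 (SE 0.09, adjusted p = 0.0243). Gsg1l, another AMPA auxiliary subunit, rose from a median of 88 CPM to 121.2 CPM, by 0.38 (SE 0.113, adjusted p = 0.0489). Lhfpl4, which gathers GABA-A receptors at inhibitory synapses, rose from a median of 117.1 CPM to 167.2 CPM, by 0.33 (SE 0.0976, adjusted p = 0.0443). For each of these 6 the lowest and highest libraries of the diets overlapped.

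By list, the called genes were 2 of 13 AMPA auxiliary subunits, 2 of 19 scaffold genes, 1 of 8 genes of GABA-A receptor clustering and 1 of 4 GABA-B auxiliary subunits. edgeR called 0 of 2 kainate auxiliary subunits (0 at an unadjusted p under 0.05), 0 of 10 genes of glutamate transport and metabolism (3 unadjusted) and 0 of 9 genes of GABA synthesis, transport and breakdown (0 unadjusted). Over the whole list DESeq2 called 9 in males. In edgeR the count of 6 was 1 with AL replicate 1 included, 0 without the choroid plexus libraries, 0 with oligodendrocyte markers as a covariate and 3 with striatal ones. It was 1 without AL replicate 2, 2 without AL replicate 5, and 3 without AL replicate 3 or 4 or without IF replicate 3, 5, 6 or 7. In females edgeR and DESeq2 called 0 of 65, 9 had an unadjusted p under 0.05, against the 11.2% given above, and edgeR called 3 without AL replicate 2. The largest female changes were Cacng5 at 0.47 (adjusted p = 0.514) and Homer1 at 0.29 (adjusted p = 0.371). Cacng5 had a library at 20.8 CPM in female IF, where the median was 5.275 CPM, and at most 8.61 CPM in female AL, with a median of 4.71 CPM. In the interaction 3 of 65, all scaffold genes, were called, against 2.03% of all genes, each positive, against 1.06%: Homer1 at 0.66 (adjusted p = 0.0319), Homer2 at 0.57 (adjusted p = 0.00741) and Grip1 at 0.57 (adjusted p = 0.0174). With male AL replicate 1 included Homer2 and Grip1 kept their calls and Homer1 lost its own (adjusted p = 0.254). In edgeR 0 of 65 were called with oligodendrocyte markers as a covariate (4 at an unadjusted p under 0.05), 0 with striatal ones (17 unadjusted) and 0 without the choroid plexus libraries (11 unadjusted). Between the sexes in AL, where 12.6% of all genes were called and 7.11% were lower in females, 14 of 65 were lower in females. None was higher, and 23 had an unadjusted p under 0.05, against 26.8% of all genes. The count of 14 was 12 with male AL replicate 1 included, where 6.83% of all genes were called. It was 9 with oligodendrocyte markers as a covariate (5.89%), 13 with striatal ones (10.1%) and 3 with both (1.67%).

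Liver and muscle hold few of these receptors, and liver changed in males. Grik5 lay in fed liver at 54.4 to 95.2 CPM with a median of 66 in males and 74.6 to 207.6 CPM with a median of 103.5 in females. Gabbr1 and Gabbr2 had means of 9.64 ± 2.13 and 12.9 ± 1.96 CPM in male AL liver (n = 8), and 10.02 ± 3.2 and 19.9 ± 2.22 CPM in female AL liver (n = 8). Others at 1 CPM or more in male AL liver were Gabre at 1.37, Gabra3 at 1.24 and Grin2d at 1.18 CPM. In female AL liver they were Grid1 at 3.54, Gabre at 1.71, Gabra3 at 1.21 and Grin2d at 1.203 CPM. Fed muscle had Grik5 at 6.07 CPM in males and 4.39 CPM in females, Gabbr1 at 5.34 and 6.39 CPM, Grin3b at 1.22 CPM in males and Gabrd at 1.38 CPM in females. Values given here without a range are means of CPM, not scaled by gene length.

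In male liver, where 44.6% of 16204 genes were called for diet, 3 of 14 tested members were. Gabbr1 rose: it ranged from 6.32 to 13.3 CPM with a median of 9.53 in AL and from 9.15 to 27.7 CPM with a median of 15.7 in IF. It was above the AL range in 5 of 8 IF libraries, for a change of 0.65 (SE 0.177, adjusted p = 0.00438). Gabbr2 fell, from 10.2 to 15.6 CPM with a median of 13.3 in AL to 7.61 to 12.8 CPM with a median of 9.19 in IF. It was below the AL range in 5 IF libraries and below the AL median in all 8, for a change of −0.52 (SE 0.143, adjusted p = 0.00494). The GABA-B subunits thus moved in opposite directions in the tissue. Gabrr2 fell too, from 0.416 to 1.65 CPM with a median of 0.901 in AL to 0.0497 to 0.846 CPM with a median of 0.224 in IF. It left the AL range in 6 IF libraries, for a change of −1.54 (SE 0.506, adjusted p = 0.016). The members' share called is below that of all genes.

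In female liver edgeR called none of 15938 genes (0%), and so 0 of 12 tested members; 1 had an unadjusted p under 0.05, and DESeq2 called 0 members. That member was Grid1, at 2.11 to 5.57 CPM with a median of 3.43 in AL and 0.878 to 2.87 CPM with a median of 2.34 in IF, below the AL median in all 8 IF libraries (change −0.73, SE 0.278, adjusted p = 0.797). In male muscle, where 23.0% of 15025 genes were called, Gabrr2 was the 1 of 10 tested members to pass. It ranged from 0.535 to 1.24 CPM with a median of 0.779 in AL and from 0.785 to 2.06 CPM with a median of 1.38 in IF. Above the AL range were 5 IF libraries, for a change of 0.62 (SE 0.224, adjusted p = 0.0483). With 7 mice per group, without mice 2 and 10, its adjusted p was 0.0704 (0.0109 to 0.108 over 6 alternatives, the unadjusted p among them). In female muscle 0.00653% of 15308 genes were called, and edgeR and DESeq2 called 0 of 12 tested members; Gabre had an unadjusted p under 0.05 with a change of −0.79 (SE 0.304, adjusted p = 0.382). Whether male and female changes in liver or muscle differ was not tested.

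The tissues were compared within AL mice. The log2 differences come from fits that scale libraries to each other (TMM), which CPM does not, so CPM is given beside them. In males 40 of 43 tested members were called higher in cortex than in liver, against 46.0% of 19759 genes, and 2 were called lower, against 38.5%. Those were Gabre, the ε subunit, and Gabrr2, the latter with a log2 difference, cortex minus liver, of −1.34. In CPM the ranges of Gabrr2 overlapped, at 0.463 to 0.881 in male AL cortex and 0.416 to 1.65 in male AL liver. Against muscle 39 of 43 were called higher in cortex, against 45.3%, and 4 lower, against 36.1%. Those were Gabrr2 at −1.36, Grin3b at −3.02, Gabre and Gabrr1, another ρ subunit. In CPM the ranges of Gabrr2 overlapped here too, with 0.535 to 1.24 in muscle. Grin3b lay at 0.178 to 0.494 CPM in male AL cortex and at 0.754 to 1.59 CPM in male AL muscle. In females 38 of 41 were called higher in cortex than in liver, against 47.0% of 19580 genes, and 1 lower, Gabre, against 37.8%. Against muscle 38 of 41 were called higher, against 45.0%, and 2 lower, Gabre and Grin3b, the latter at −1.33, against 36.2%. Female AL Grin3b overlapped in CPM, at 0.178 to 0.777 in cortex and 0.310 to 1.29 in muscle. Gabre lay at 0.0815 to 0.669 CPM in male AL cortex and at 0.772 to 2.01 CPM in male AL liver, and Gabrr1 at 0 to 0.107 CPM in male AL cortex and at 0.213 to 1.05 CPM in male AL muscle. Gabre and Gabrr1 had too few counts to be tested within cortex and passed the filter through another tissue, so they had to be lower in cortex than there; the counts of lower members include them, and no fold is given for them. Members that passed the filter only through cortex had to be higher there, and the counts of higher members include them. In the diet fits within a tissue 14 members passed the filter in male liver and 10 in male muscle. In females 12 passed in liver and 12 in muscle. The shares of members higher in cortex were thus partly fixed by the filter. No fold is given for members at or near 0 in the other tissue. Grik5 was higher in cortex than in liver by 1.74 in males and 1.18 in females on the log2 scale, and higher than in muscle by 5.04 and 5.65. In male AL mice it lay at 361 to 478 CPM in cortex, 54.4 to 95.2 in liver and 4.46 to 7.92 in muscle. Female AL mice had 357 to 445 CPM in cortex, 74.6 to 207.6 in liver and 2.99 to 6.21 in muscle.

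Several of these genes lie next to each other in the genome (GRCm39). Gabrg1 (chr5:70908390-70999960, minus strand), Gabra2 (chr5:71114940-71253192, minus), Gabra4 (chr5:71727092-71815651, minus) and Gabrb1 (chr5:71815456-72306380, plus) form a cluster on chromosome 5. Of its 4 genes Gabrg1, Gabra2 and Gabrb1 were called lower in male IF cortex, while Gabra4 had a change of −0.02 (adjusted p = 0.927). In the cluster on the X chromosome (Gabre, Gabra3 and Gabrq) no tested gene was called. Gabrr2 lies on chromosome 4 beside Gabrr1, which was not tested in cortex. In the annotation 27 of the 47 genes share exon bases with a gene on the opposite strand and 7 with one on the same strand. Among called members other than Grin3b the opposite-strand share was highest in Grin2d at 8.18%.

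Promoter sequences of RefSeq on build GRCm38.p6, 250 bases before to 50 bases after a start, were matched by symbol for 32 of the 47 genes, with 39 promoters. Those of Gabra2 and Gabrb1 are shown because these 2 genes of the cluster on chromosome 5 were called lower in male IF cortex and passed the interaction; Grin3a is not in the table. Gabra2 is at chr5:71095800-71096099 on the minus strand, with 70% G and C. Gabrb1 has 2 entries on the plus strand, at chr5:71657671-71657970 with 66% and at chr5:71699682-71699981 with 50.3%. The median was 59.7% over the members' promoters and 52.7% over all 32851. Each was searched on both strands for 4 motifs, none of which holds another. The letters GGGCGG were found in 35.7% of all promoters and 48.7% of the members', the letters CACGTG in 7.15% and 2.56%, the letters TGACGTCA in 1.79% and 0%, and the letters TATAAA in 13.6% and 10.3%. Capitals mark the 2 matches in Gabra2, to GGGCGG on the printed strand and then on the other strand, and the Gabrb1 windows hold none of the letters searched.
Gabra2: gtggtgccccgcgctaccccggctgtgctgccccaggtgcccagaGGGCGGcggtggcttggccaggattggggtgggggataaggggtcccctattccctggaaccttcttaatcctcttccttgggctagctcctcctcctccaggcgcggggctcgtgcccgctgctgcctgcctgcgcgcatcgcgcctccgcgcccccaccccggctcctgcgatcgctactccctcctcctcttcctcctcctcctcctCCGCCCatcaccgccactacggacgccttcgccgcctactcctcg
Gabrb1 at 71657671: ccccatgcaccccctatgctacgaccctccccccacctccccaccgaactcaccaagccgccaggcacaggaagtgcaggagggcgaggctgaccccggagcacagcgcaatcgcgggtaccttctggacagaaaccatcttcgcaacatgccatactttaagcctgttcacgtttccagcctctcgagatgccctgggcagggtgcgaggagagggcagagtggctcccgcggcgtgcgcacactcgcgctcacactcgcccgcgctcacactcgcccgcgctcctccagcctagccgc
Gabrb1 at 71699682: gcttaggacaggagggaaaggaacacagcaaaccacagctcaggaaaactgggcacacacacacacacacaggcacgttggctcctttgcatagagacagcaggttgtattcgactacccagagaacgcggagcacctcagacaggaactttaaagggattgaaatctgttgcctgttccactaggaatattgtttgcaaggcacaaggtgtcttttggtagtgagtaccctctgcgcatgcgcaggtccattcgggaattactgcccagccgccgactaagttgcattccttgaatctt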

How the data were processed

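The deposited table holds raw counts per gene for each library. The authors aligned reads (polyadenylated RNA, directional libraries, NovaSeq 6000) to GRCm39 with Hisat2 2.0.5 and counted with featureCounts 1.5.0-p3; its strand setting is not stated. The deposited gene length is in bases, computed in a way not stated. CPM is a gene's raw count per 1000000 counts of its library. Fits used edgeR 4.0.16 in R 4.3.3 (filterByExpr with a count minimum of 10 and total of 15, TMM, quasi-likelihood test, two-sided, Benjamini-Hochberg over all genes); called means an adjusted p under 0.05. Fits were tested on simulated data. Figures used matplotlib 3.10.9 in Python 3.11.15.

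AL and IF mice of the same replicate number are different animals; tissues share mouse numbers. Diet was tested in each tissue and sex apart, sex and interaction in 1 cortex fit over 4 groups, and tissues within AL. Male AL replicate 1 of cortex was left out. Members and lists (65 pathway genes in 7 lists, markers of 17 cell types) were chosen with earlier results of these data known. Named with values, where described, are members called in a cortex diet or interaction fit, the highest and lowest per kb of a subfamily, the 3 largest diet changes in a cortex fit, those at 1 CPM or more in fed liver or muscle, the 5 smallest p called in other fits, and those lower in cortex than in another tissue. Alternatives were RLE size factors, no filter, DESeq2 1.42.0, unadjusted p, a replicate block, 7 mice per group, 1 fit over 4 groups, the left-out library included and each library left out. Marker covariates and leaving out libraries over 500 CPM of choroid plexus markers were added after seeing the data.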

Additional observations from a re-analysis of the deposited data

Results flagged for a closer look

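Among 14 receptor genes named for cortex, in 56 groups of libraries, 4 groups had a library far from the others, and chance flags about 1 in 20 groups. Grik3 was at 63.5 CPM in male IF replicate 4, against 86.6 CPM in the nearest library, and at 106 CPM in female AL replicate 2, against 70.8 CPM in the nearest. Grik4 was at 21.1 CPM in male IF replicate 4, with the nearest library at 26.2 CPM. Grin3a was at 26 CPM in female IF replicate 4, with the nearest at 20.8 CPM. By edgeR's interaction test the female diet change lay above the male one for Gabra2 by 0.662, for Grin3a by 0.55 and for Gabrb1 by 0.366 on the log2 scale. None of these was called with male AL replicate 1 included, with a marker covariate or without the choroid plexus libraries. Age, hours of fasting and length of diet are not stated for females, and sex goes with mouse number, so these cannot be told apart from sex. The library left out, cortex of male AL replicate 1, had 213 CPM of Xist, where the other male AL cortex libraries had at most 0.229 CPM.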

How the results depend on the processing

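Where a result below did not hold, the cause was not tested. The count of 13 members called in male cortex was 25 at an unadjusted p, 2 with a replicate block (Gabra2 and Grin3a), 0 with 7 mice per group (male AL replicate 1 among them), 1 with that replicate added, 0 with oligodendrocyte markers as a covariate, 6 with striatal markers, 0 with both, 0 without choroid plexus libraries, and 4 to 17 with a single library left out; RLE size factors gave 11, no filter 9, DESeq2 17 and 1 fit over 4 groups 16. The count of 6 pathway genes was, in the same order, 18, 0, 0, 1, 0, 3, 0 and 0, and 1 to 9 with a single library left out. In male cortex the share of all genes called was 23.8% at an unadjusted p, 2.07% with the block and 0.425% with 7 mice per group. It was 1.6% with the replicate added, 0.00542% with oligodendrocyte markers, 4.12% with striatal markers and 0.0108% with both. Without choroid plexus libraries it was 0.411%, and with a single library left out 3.43% to 11.2%. RLE size factors, no filter, DESeq2 and 1 fit over 4 groups gave 7.5%, 2.95%, 6.17% and 10.5%. In female cortex 0 members were 2 at an unadjusted p and 0 with any library left out, and 0 pathway genes were 9 at an unadjusted p and 0 to 3. The count of 3 members in the interaction was 5 in DESeq2 and 0 with male AL replicate 1, with either or both marker covariates or without choroid plexus libraries; in the sex comparison 7 of the 11 kept their call with that replicate, 5 with oligodendrocyte markers, where Grm2 was called as well, for a count of 6, and 0 with both lists. In male liver 3 members were 5 without a filter; in female liver and in female muscle 0 were 1 at an unadjusted p; in male muscle 1 was 0 without a filter, with a replicate block and with 7 mice. With a mouse block the call of Gabrq between cortex and muscle in males was lost. Grin3b in female cortex reversed, from −0.20 to 0.028 with both marker covariates, neither called. Of the other log2 changes 412 kept direction and side of the threshold, 219 kept direction and lost the call, and 1, Grik4 in females, passed at an unadjusted p of 0.0253 (adjusted p 0.174 to 0.598 over its other alternatives); 188 levels moved by less than the spread between replicates. Libraries of the same replicate number in AL and IF correlated at −0.262 to 0.457 after group means were removed. Depth limits Grin3b, Gabrr2 and Gabrq, with 2 to 88 counts per cortex library.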
